A study of Homo sapiens with 3 samples.

Results

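The genes of death receptor signalling were described in TK-10 cells, a line derived from a human renal cell carcinoma. The 10 genes, of 22439 that could be named on the arrays, were FAS, TNFRSF10A, TNFRSF10B, TNFRSF1A, TNFSF10, TNF, FADD, CASP8, RIPK1 and CFLAR. They were chosen by name, and every probe whose RefSeq transcript belonged to one of them was taken, which gave 17 of the 58201 probes that were not controls. CFLAR was read by 4 probes, FAS and TNFSF10 by 3 each, and the other 7 genes by 1 each.

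Death receptors are proteins of the cell surface that turn the binding of a ligand into a signal for cell death. FAS ligand and TRAIL, the product of TNFSF10, bring their receptors together, and the adaptor FADD then recruits the precursor of caspase-8, which starts the proteolysis that kills the cell. cFLIP, the product of CFLAR, resembles caspase-8 and competes with it at FADD, while TNF receptor 1 uses the kinase RIPK1 to reach either NF-κB or cell death. Several of these genes, CFLAR, FAS and TNF among them, are known targets of NF-κB, and TNFSF10 is known as a gene induced by interferon.

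RNA from 3 cultures was measured on 3 single-colour Agilent arrays on 1 slide. The cultures were kept for 48 h with vehicle (0.1% DMSO), with cordyceps at 750 μg/mL or with sunitinib, an inhibitor of receptor tyrosine kinases, at 10 μM. The labels do not state whether the treated cultures also held DMSO. Per the labels, the medium of all 3 was DMEM with 10% serum and 1% penicillin and streptomycin, and also held zinc sulfate at 16.7 μM, troglitazone at 10 μM and nicotinamide at 10 mM, whereas the methods of the study list neither nicotinamide, troglitazone nor zinc. The study describes purified cordycepin, an adenosine analogue found in Cordyceps fungi, at another dose, and which of these was given cannot be told from the files, so the array keeps the name in its label. Each group was 1 array, so no replicate error, no p-value and no test between groups was possible, and both treatments share the same vehicle array.

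The promoters of TNFSF10 and CFLAR are shown because probes of these genes, 2 of TNFSF10 and 1 of the 4 of CFLAR, gave the lowest cordyceps ratios among the 10 members. Each sequence is the 250 bases before a transcription start in RefSeq (GRCh38.p14), written 5′ to 3′ on the strand of the gene. In TNFSF10 (chr3:172523431-172523680, minus strand) the capitals mark a match to the core of the interferon-stimulated response element, and in CFLAR (chr2:201118466-201118715, plus strand, the first of 4 starts) they mark a match to the consensus site of NF-κB.
TNFSF10: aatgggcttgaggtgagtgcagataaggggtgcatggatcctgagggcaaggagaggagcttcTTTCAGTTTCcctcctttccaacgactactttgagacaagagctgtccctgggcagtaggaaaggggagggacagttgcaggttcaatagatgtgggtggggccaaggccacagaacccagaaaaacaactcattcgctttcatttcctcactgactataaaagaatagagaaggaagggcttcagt
CFLAR: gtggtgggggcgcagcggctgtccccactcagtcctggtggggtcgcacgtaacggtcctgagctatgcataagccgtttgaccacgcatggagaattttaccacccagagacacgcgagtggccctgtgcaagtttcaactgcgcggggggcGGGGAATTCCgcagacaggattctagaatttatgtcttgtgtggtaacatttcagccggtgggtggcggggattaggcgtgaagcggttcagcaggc
The response element core (GAAA repeated after a gap of any 2 bases, searched on both strands) read TTTCAGTTTC in TNFSF10, from 187 to 178 bases before the start, on the opposite strand. It was found in 3.02% of the 35116 windows of the same length. Among the 8 members with a window it was also in RIPK1, and 3 of their 17 windows held it. The NF-κB match in CFLAR read GGGGAATTCC, from 97 to 88 bases before the start. A match to the same consensus was found in 5.21% of all windows and in 2 of the 17 member windows, the other in FAS. Of the 4 windows of CFLAR, only the one shown held it, and the window of TNF held none. A TATA box and a site of the transcription factor AP-1 were also searched and are not marked. The TATA box was found in 10.7% of all windows and in 4 members, with the TNFSF10 window shown among them. The AP-1 site was found in 6.57% and in 3 members, in CFLAR in a window not shown. A match describes letters in a window and not a bound site. The arrays bear on the transcripts alone, and binding was not measured.

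Signals below are the processed intensities of each array. Before arrays were compared, each signal was divided by the 75th percentile of its array, and the log2 ratio of these levels is given with the combined technical error of the scanner software (1 SD). A ratio was called past the error limit when it exceeded the 95% limit of this error, which says nothing of the spread between cultures. The 75th percentile was 165 on the vehicle array, 138 on the cordyceps array and 78.3 on the sunitinib array, and from 37.8% to 45.5% of the probes were well above background. Of the 17 member probes, 14 were well above background on all 3 arrays, 16 on at least 1, and 1 on none. A bright area of 556 spots on the cordyceps array held no member probe. Of 9 markers of renal epithelium, 8 had a probe and were well above background on every array. Before scaling, their summed signals were 195756 with vehicle, 143717 with cordyceps and 136235 with sunitinib. Of these sums VIM alone gave 142519, 103601 and 106702. After the scaling, 7 of these 8 were lower and 1 was higher than with vehicle on the cordyceps array, from CDH6 at a log2 ratio of -2.38 to KRT18 at 0.13. On the sunitinib array 3 were lower and 5 higher, from LHX1 at -0.93 to PAX2 at 0.77. Of 11 markers of other cell types, 6 were compared. With cordyceps 5 were lower, 1 had no ratio and none was higher. With sunitinib 3 were lower and 3 higher, from COL1A1, a collagen of fibroblasts, at -2.71 to PTPRC, the common leukocyte antigen, at 2.39. The PTPRC signal with vehicle, 18.4, was close to 18.2, the lowest signal counted as detected there. Before scaling, the summed signals of the fibroblast markers were 6019, 1612 and 922 and those of the leukocyte markers 732, 405 and 187. Of these sums COL1A1 gave 5308, 1069 and 385, and CD14 gave 693, 374 and 116. The fibroblast marker PDGFRB was higher with sunitinib after scaling, at 0.66. CD3E, PECAM1, COL3A1 and ALB were not well above background on any array. The part of such differences in the ratios below was not tested. All the arrays are labelled as TK-10, a cell line. Signals of markers named for other cell types do not show that such cells were present. Fewer cells that express a marker and less of its RNA per cell cannot be told apart in a bulk culture.

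On the cordyceps array, 3 member probes were more than 2-fold lower than with vehicle and none was higher, against 2.49% lower and 3.61% higher among the 26871 probes compared. The 3 were both bright probes of TNFSF10 and 1 of the 4 probes of CFLAR. On the sunitinib array, 3 were more than 2-fold lower and none higher, against 5.67% lower and 8.07% higher among 27138 probes, and these were 1 probe each of TNFRSF10A, TNFSF10 and CFLAR. Between the treatments, 1 probe, that of TNFRSF10A, was more than 2-fold higher with cordyceps than with sunitinib and none was lower, against 9.01% and 8.92% of 23953 probes.

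Counting every ratio whatever its size, the members lay mostly on the lower side. With cordyceps, 14 of 16 compared probes had a negative log2 ratio, and the median was -0.35. All probes measured on both arrays had a median of 0.00 and quartiles of -0.25 and 0.26. With sunitinib, 13 of 16 were negative and the median was -0.48, beside 0.05 and quartiles of -0.34 and 0.47 for all probes measured on both arrays. This balance moved with the scaling: when arrays were scaled to their medians instead, 9 of 16 were negative with cordyceps and 14 with sunitinib. Of the probes measured on both arrays, 7 of 15 were lower with cordyceps past the error limit (13.1% of all such probes) and none was higher (14.6%). With sunitinib, 8 of 14 were lower past the limit (20%) and 2 were higher (25.8%). Between the treatments, 4 of 14 were higher with cordyceps past the limit (22.4%) and 5 were lower (26.9%). Probes of 1 gene share its transcripts and are not independent of each other.

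**Figure D1:**
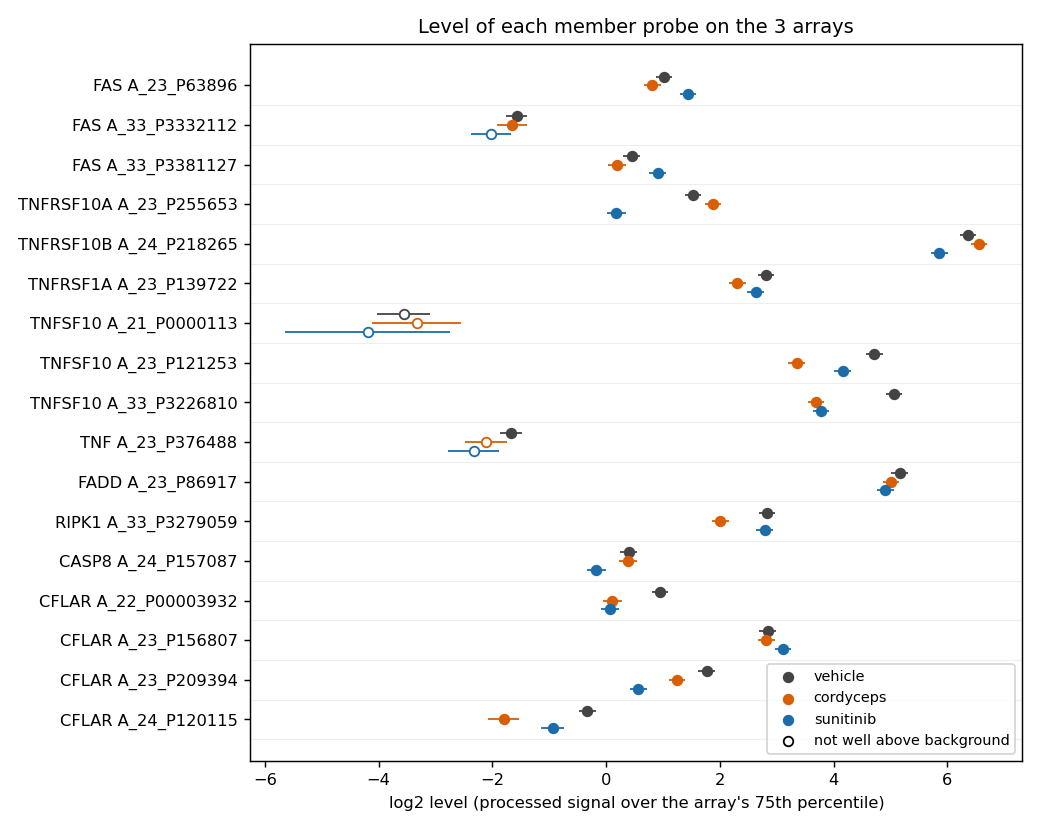
Log2 level of each of the 17 member probes on the vehicle, cordyceps and sunitinib arrays, with bars of 1 combined technical error and open points for signals that were not well above background. Points are to be compared within a row, and the vehicle point lies above both treatments for the bright TNFSF10 probes and for 3 of the 4 CFLAR probes.

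Among the ligands, TNFSF10 differed from vehicle on both treated arrays. Its probe A_23_P121253 had signals of 4341 with vehicle, 1403 with cordyceps and 1396 with sunitinib, and its probe A_33_P3226810 had 5504, 1777 and 1078. Vehicle was the highest array for both. With cordyceps the 2 probes gave the same log2 ratio of -1.37 ± 0.20, or 2.59-fold lower. Both probes are assigned to NM_003810, and their ratios are at percentiles 0.953 and 0.945 of all probes. With sunitinib they parted: A_33_P3226810 was 2.42-fold lower (-1.28 ± 0.20) and A_23_P121253 was 1.48-fold lower (-0.56 ± 0.20). The difference of 0.71 between them exceeded its error limit of 0.57, so the size of the sunitinib difference depends on the probe. A gap at least as wide was seen in 273 of 2011 pairs of probes that share a transcript accession. The third TNFSF10 probe, A_21_P0000113, is assigned to the variant NM_001190943 and had signals of 14.0, 13.7 and 4.29, none of them well above background, so it gives no ratio.

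TNF, the founding ligand of the family, was dim. Its probe A_23_P376488 had 51.7 with vehicle, where it was well above background, and 31.9 with cordyceps and 15.6 with sunitinib, where it was not. Its cordyceps signal was above 30.2, the lowest signal counted as detected there, so its ratio of -0.44 (1.36-fold lower) was no bound. With sunitinib it was at least 1.34-fold lower (-0.42). Both values lay within their error limits of 0.82 and 0.94. Under another background correction (normexp) the cordyceps ratio was -0.06. The treatments could not be set against each other for this gene.

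The TRAIL receptors were each read by 1 probe. TNFRSF10A, which encodes death receptor 4, had signals of 476 with vehicle, 508 with cordyceps and 88.6 with sunitinib on its probe A_23_P255653. The sunitinib array was the low one, at a log2 ratio of -1.35 ± 0.22 (2.55-fold lower). With cordyceps the ratio was 0.35 ± 0.21, within its error limit of 0.40, and between the treatments cordyceps was 3.25-fold higher (1.70 ± 0.22). TNFRSF10B, which encodes death receptor 5, had 13537, 13034 and 4543 on its probe A_24_P218265. Its ratios were 0.20 ± 0.20 with cordyceps and -0.50 ± 0.20 with sunitinib, and 0.70 ± 0.20 between the treatments. Its sunitinib ratio passed the error limit but not 2-fold, and the median ratio of its neighbouring detected spots was -0.45, whose part in the ratio was not tested. Set against each other within the same arrays, which needs no scaling, the TNFRSF10A ratio was lower than the TNFRSF10B ratio by 0.85 ± 0.30 with sunitinib, past the limit of 0.59, and the 2 differed by 0.15 ± 0.29 with cordyceps, within the limit of 0.57. The sunitinib difference depended on the background correction. With normexp the ratios were -1.14 for TNFRSF10A and -0.89 for TNFRSF10B, closer to each other than that limit. As run here, normexp adds an offset of 50 to each signal, beside a TNFRSF10A signal of 88.6 with sunitinib. The part of the offset in this loss was not tested.

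FAS, the receptor of FAS ligand, had 333 with vehicle, 242 with cordyceps and 213 with sunitinib on probe A_23_P63896, and 225, 157 and 147 on probe A_33_P3381127. After scaling, both probes were highest on the sunitinib array, with log2 ratios of 0.43 ± 0.21 and 0.46 ± 0.21 over vehicle, just past error limits of 0.41. With cordyceps they gave -0.20 ± 0.21 and -0.26 ± 0.21, within the limits. Neither side reached 2-fold, and the sunitinib ratios fell inside the error limit when arrays were scaled to their medians (0.10 and 0.13) or corrected with normexp (0.15 and 0.28). In the unscaled values their sign turned, to -0.65 and -0.61. The third FAS probe, A_33_P3332112, was dim at 55.4, 43.8 and 19.1, and not well above background with sunitinib. It gave -0.08 ± 0.32 with cordyceps and, by its own dim signal, -0.46 ± 0.40 with sunitinib (1.38-fold lower), both within their error limits. TNFRSF1A, which encodes TNF receptor 1, had 1156, 686 and 483 on probe A_23_P139722. Its ratio was -0.50 ± 0.20 with cordyceps, past the error limit of 0.40, and -0.18 ± 0.20 with sunitinib, within it. This was reversed when arrays were scaled to their medians, at -0.28 with cordyceps and -0.52 with sunitinib. With normexp both passed 0.40, at -0.56 and -0.42.

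**Figure D2:**
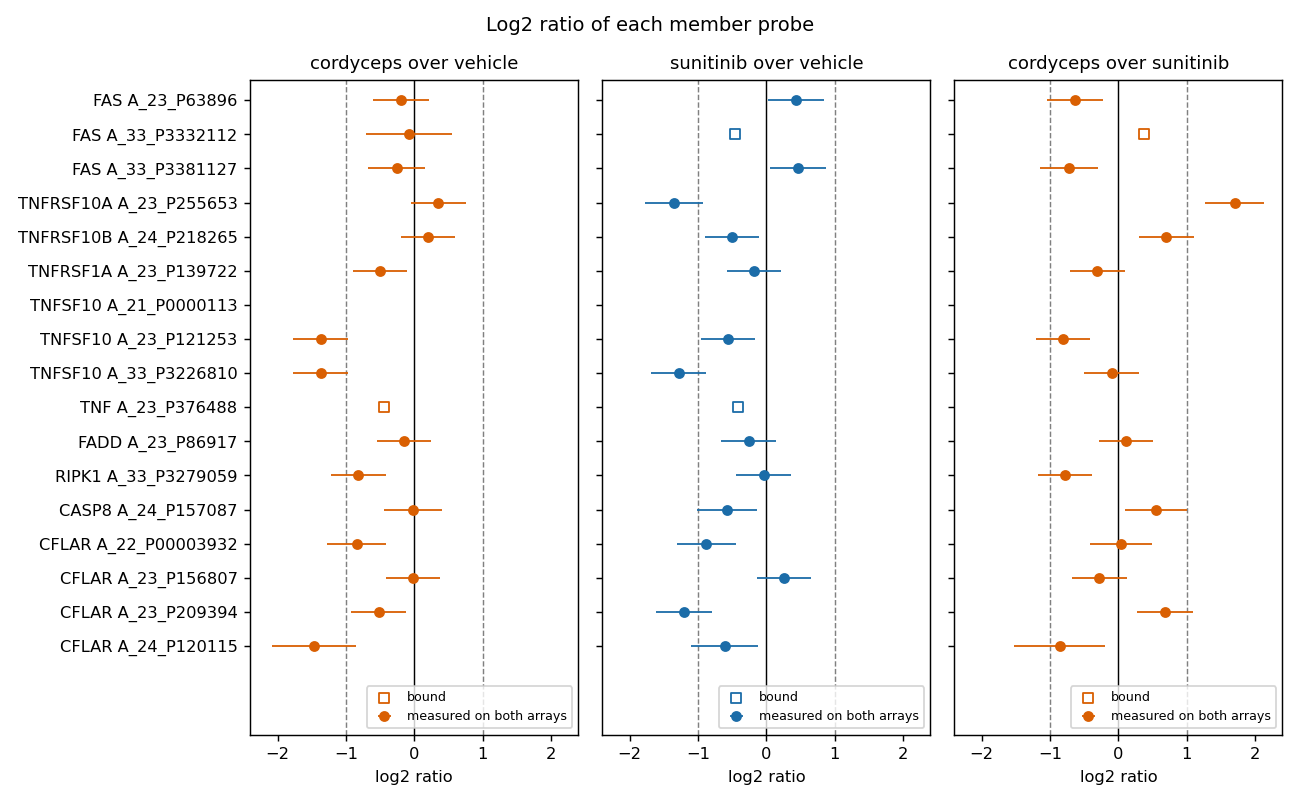
Log2 ratio of each member probe for cordyceps over vehicle, sunitinib over vehicle and cordyceps over sunitinib, with bars of the 95% limit of technical error. Squares are bounds, or ratios in which a dim side kept its own signal. Rows with no point had no ratio, and dashed lines mark 2-fold. The TNFSF10 pair lies at -1.37 with cordyceps, and TNFRSF10A lies at -1.35 with sunitinib and at 1.70 between the treatments.

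The adaptor, the caspase and the kinase of the receptor complexes were each read by 1 probe and stayed short of 2-fold. FADD, the adaptor that joins receptors to caspase-8, had 5907 with vehicle, 4455 with cordyceps and 2349 with sunitinib on probe A_23_P86917. Its ratios of -0.15 ± 0.20 and -0.26 ± 0.20 were both within the error limit of 0.40. The sunitinib ratio passed 0.40 when arrays were scaled to their medians (-0.59) or corrected with normexp (-0.62). The spots around the FADD probe had a median of 0.44 with sunitinib, opposite in sign, and their part was not tested. CASP8, the initiator caspase, had 217, 180 and 69.7 on probe A_24_P157087. Its ratio was -0.02 ± 0.21 with cordyceps and -0.57 ± 0.22 with sunitinib, the latter past its limit of 0.44. With normexp the sunitinib ratio was -0.43, just inside that limit. RIPK1, the kinase at TNF receptor 1, had 1173, 555 and 540 on probe A_33_P3279059. After scaling, the cordyceps array was the low one, at -0.82 ± 0.20 with cordyceps (1.77-fold lower, past the limit of 0.40) and -0.04 ± 0.20 with sunitinib. The contrast between the treatments depended on the scaling. Cordyceps over sunitinib was -0.78 as reported, -0.23 when arrays were scaled to their medians and 0.04 with no scaling. Sunitinib over vehicle was then -0.38 and -1.12. Spots around the RIPK1 probe also lay low with cordyceps, at a median of -0.29, and their part was not tested either.

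CFLAR gave ratios that depended on the probe. Probe A_24_P120115, assigned to NM_003879, the transcript of the long form of cFLIP, had 131 with vehicle, 39.7 with cordyceps and 40.8 with sunitinib. It was 2.77-fold lower with cordyceps (-1.47 ± 0.31), and its ratio with sunitinib was -0.61 ± 0.25. The assignment does not tell whether the probe reads the long form alone. The cordyceps signal was close to 30.2, the lowest signal counted as detected there, and under another background correction (normexp) the ratio was -0.69, short of 2-fold. Probe A_23_P209394, assigned to NM_001127184, had 562, 328 and 116, with ratios of -0.52 ± 0.21 and -1.20 ± 0.21, and was thus 2.29-fold lower with sunitinib. The 2 probes differed by 0.95 ± 0.37 with cordyceps, past the limit of 0.73, and by 0.59 ± 0.32 with sunitinib, within the limit of 0.64. With normexp neither passed 2-fold with cordyceps, at -0.54 for A_23_P209394.

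The other CFLAR probes are both assigned to NM_001202519. Probe A_22_P00003932 had 319, 149 and 82.1, with ratios of -0.84 ± 0.22 and -0.88 ± 0.22, both past the error limit. Probe A_23_P156807, the brightest of the 4, had 1182, 975 and 674, with ratios of -0.02 ± 0.20 and 0.26 ± 0.20, both within it. The same accession thus gave log2 ratios 0.82 apart with cordyceps and 1.15 apart with sunitinib, each past a limit of 0.59. Among 2056 and 2011 such pairs in the whole table, 116 and 84 lay as far apart or farther, and the medians were 0.18 and 0.27. Which splice forms each probe reads is not given in the sources used here.

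Over its 4 probes, the CFLAR log2 ratios spanned 1.45 ± 0.37 with cordyceps and 1.46 ± 0.29 with sunitinib. Of the 102 genes with 4 compared probes, 5 spanned as much with cordyceps, CFLAR included, and the median was 0.49. With sunitinib, 12 of 97 did and the median was 0.76. With the normexp correction the cordyceps span was 0.66. A single value for CFLAR would therefore rest on the choice of probe: the brightest probe gave no difference past the error limit on either array, and each of the 3 dimmer probes gave a lower level past that limit on both. Of these calls, that of A_24_P120115 with sunitinib was lost with normexp (-0.19), and that of A_23_P209394 with cordyceps when arrays were scaled to their medians (-0.30).

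**Figure D3:**
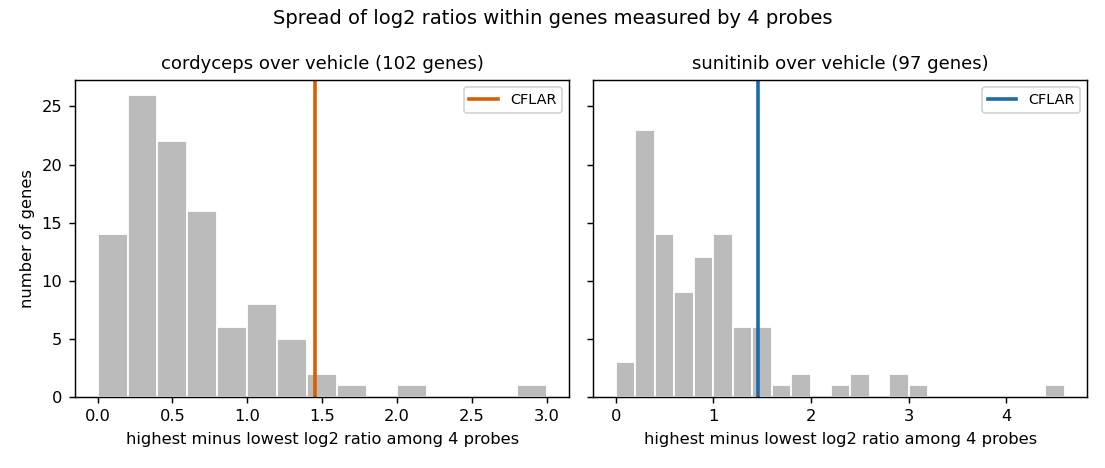
Number of genes by the span of log2 ratios (highest minus lowest) among their 4 probes, for cordyceps over vehicle (102 genes) and sunitinib over vehicle (97 genes). The line marks CFLAR, at 1.45 and 1.46, to the right of the medians of 0.49 and 0.76.

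The 7 ratios past 2-fold kept their direction under every alternative run (9 each, in scaling, background correction and filtering of spots). The TNFSF10 probes stayed between -1.63 and -1.15 with cordyceps, and TNFRSF10A between -2.43 and -1.14 with sunitinib. CFLAR probe A_24_P120115 ran from -1.73 to -0.69 and was the only one of the 7 to come inside 2-fold.

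**Figure D4:**
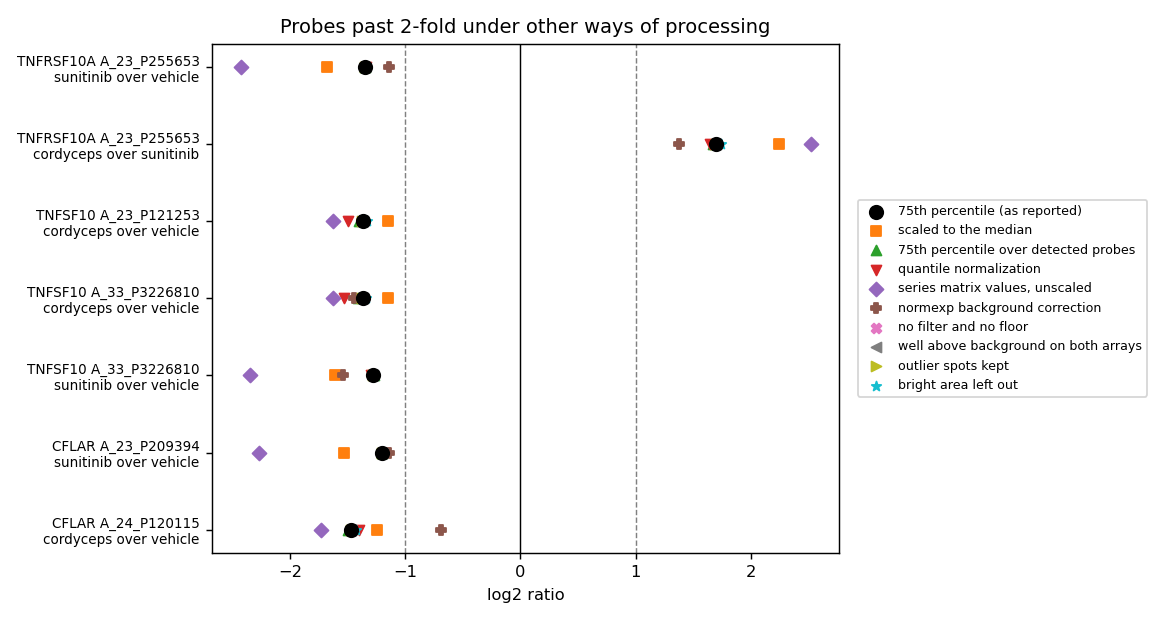
Log2 ratios of the 7 probe comparisons past 2-fold as reported (black circles) and under 9 other ways of processing, with dashed lines at 2-fold. The lowest CFLAR probe, at -0.69 with normexp, is the one point inside the lines.

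Other genes of the pathway were taken from a list of 49, of which 44 could be compared, by the brightest probe of each. Of the 44, 3 gave no ratio for either treatment. Genes with no ratio count as 0 in the medians below, and among all genes they numbered 885 with cordyceps and 912 with sunitinib. With cordyceps, 1 was more than 2-fold higher and 1 lower, against 3% and 2.75% of the 14789 genes compared, and the listed genes had a median log2 ratio of -0.04, beside 0.00 for all genes. With sunitinib, 1 was higher and 4 were lower, against 6.5% and 6.53% of 14914 genes, and the median was -0.16 beside 0.00. TNFRSF11B, osteoprotegerin, a soluble decoy receptor that binds TRAIL as well as RANK ligand, was low on both treated arrays. Its signal was 9639 with vehicle, 2187 with cordyceps and 910 with sunitinib, with ratios of -1.88 ± 0.07 and -2.33 ± 0.07 over the spots of the probe. RBCK1, a subunit of the linear ubiquitin ligase, had 2408, 4054 and 1377, and was 2.01-fold higher with cordyceps (1.01 ± 0.20), although another of its 3 probes gave 0.64. The RBCK1 call was lost under 4 of the other ways of processing and when its probes were averaged.

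The other calls came with sunitinib and included ligand, decoys and a ubiquitin ligase. TNFRSF6B, a soluble decoy receptor of FAS ligand, had 1282 with vehicle, 1279 with cordyceps and 130 with sunitinib, and was 4.68-fold lower with sunitinib (-2.23 ± 0.21), while its other probe gave -1.59. LTB, lymphotoxin beta, had 3009, 3845 and 455, at 0.61 ± 0.20 and -1.65 ± 0.20. BIRC3, the ubiquitin ligase cIAP2 of the TNF receptor complex, had 3285, 2350 and 469, at -0.23 ± 0.20 and -1.73 ± 0.20. LTB and BIRC3 are known NF-κB targets. TNFRSF10C, a decoy receptor of TRAIL that lacks a death domain, was dim at 58.8, 69.4 and 75.3 and was 2.69-fold higher with sunitinib after scaling (1.43 ± 0.23), a call that was lost with no scaling and with normexp.

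The decoy TNFRSF10D had 0.65 ± 0.20 with cordyceps and 0.60 ± 0.20 with sunitinib, and TRAF1, an adaptor and NF-κB target, had 0.93 ± 0.21 and -0.71 ± 0.24. BID, which caspase-8 cleaves to reach the mitochondria, had 0.05 ± 0.20 with cordyceps and -0.93 ± 0.20 with sunitinib on its brightest probe, and its other probe gave -1.02 with sunitinib, just past 2-fold. FASLG, which encodes FAS ligand, and RIPK3, the kinase of necroptosis, were not well above background on any array.

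**Figure D5:**
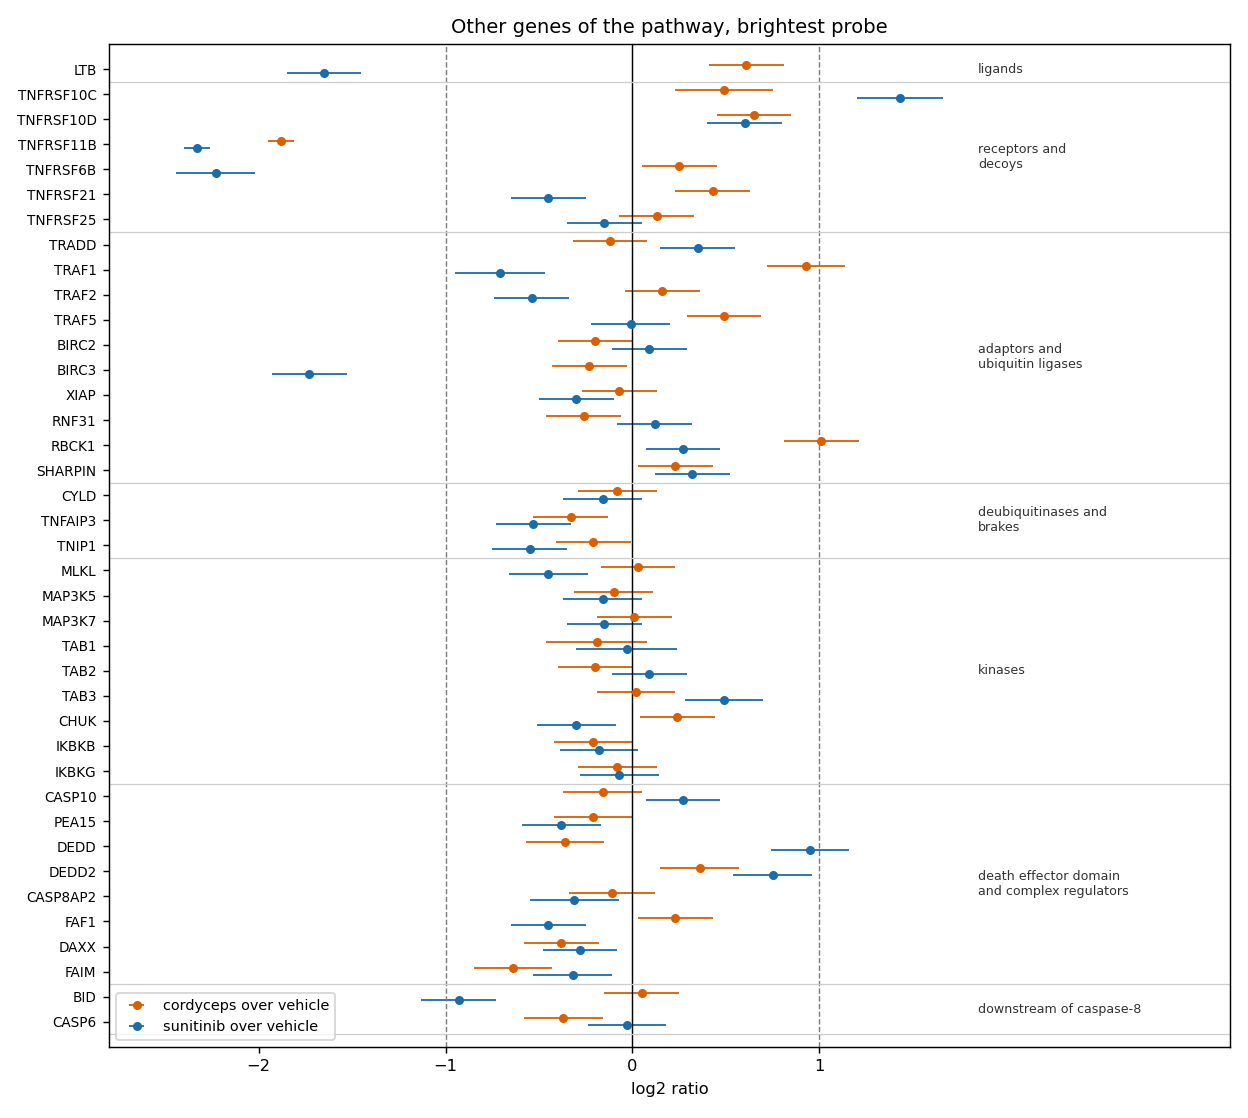
Log2 ratio of the brightest probe of pathway genes outside the 10 members, a few of which are not shown, for cordyceps over vehicle and sunitinib over vehicle, grouped by role, with bars of 1 combined technical error and dashed lines at 2-fold. TNFRSF11B lies past 2-fold on the lower side for both treatments, and TNFRSF6B, LTB and BIRC3 for sunitinib alone.

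Genes with a profile like that of a member were sought for the members whose brightest probe ranged over more than 1 on the log2 scale, which were TNFRSF10A and TNFSF10. Likeness was the distance between log2 levels on the 3 arrays, each centred on its mean, over 12496 genes well above background on all 3. The nearest to TNFRSF10A were DNMT3B at 0.019, HAUS8 at 0.025 and PAK1IP1 at 0.028. The nearest to TNFSF10, by its probe A_33_P3226810, were SPNS3 at 0.019, GPRC5B at 0.033 and CRYM at 0.039. With 3 arrays and so many genes, close neighbours can arise without any link between the genes. How close the neighbours of other genes lay was not computed, and the genes named are a description only.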

How the data were processed

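Per the file headers, the authors deposited Feature Extraction 11.5.1.1 output for 3 single-colour arrays (design annotated to hg19), in which the processed signal is an intensity after background subtraction. The deposited series table equals the mean processed intensity for 99.87% to 99.92% of values (tolerance 0.01%). The study's methods describe a 2-colour array and significance analysis of microarrays, which do not suit these files, and the 2-fold limit alone was taken from them.

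Controls and outlier spots were dropped, replicate spots were averaged per probe, and log2 intensity relative to the 75th percentile of the array was compared. A probe had to be well above background on either array of a pair. A dim side was raised to the lowest signal well above background if below it, which gives a bound, and otherwise kept its own. Bounds under 1-fold gave no ratio. Accessions were named through a RefSeq table (GRCh38.p14), used for names and promoters only. All probes of the members are reported, and of the wider list every gene past 2-fold and up to 3 others per role, except a few genes that are not reported here. Members, lists and rules were chosen with earlier results of these data known. The number of arrays limits the precision. Alternatives changed the scaling, the normexp background (offset 50, on median spot signals, as no mean signal was used), filters, outlier spots, the bright area (7 by 7 spot medians, limit 1.0) and the choice of probe. limma 3.58.1 in R 4.3.3 and, in Python 3.11.15, pandas 2.3.3, numpy 2.4.6, matplotlib 3.10.9 and scipy 1.17.1 were used, and the calculations were tested on simulated data.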

Additional observations from a re-analysis of the deposited data

How the results depend on the processing

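No member ratio past 2-fold changed sign in any of the 9 alternatives. Of 416 recomputed single-probe ratios, 312 moved by less than their technical error and 104 by more, of which 42 came with scaling to the median, 44 with the unscaled series values and 18 with normexp. Scaling moved the median of all measured probes from 0.00 with cordyceps and 0.05 with sunitinib to 0.22 and -0.28 when arrays were scaled to their medians, and to -0.25 and -1.02 with no scaling. Member probes past 2-fold numbered 5 with cordyceps and 13 with sunitinib with no scaling (3 each as reported), all lower. Between the treatments they numbered 4 when scaled to the median and 5 with no scaling (1 as reported), all higher with cordyceps. Genes of the wider list past 2-fold with cordyceps numbered 1 (2 as reported) with the percentile over detected probes, quantile normalization, no scaling, normexp or the mean of a gene's probes, and with sunitinib 29 with no scaling and 9 with no filter (5 as reported). The span of the CFLAR ratios with cordyceps was 0.66 with normexp (1.45 as reported). That of FAS with sunitinib, 0.92 with the dim probe, was 0.03 without it and 0.13 with normexp. The shifts with scaling to the median or with no scaling follow from the value by which each array was divided. On the log2 scale the 75th percentile over vehicle was -0.26 with cordyceps and -1.07 with sunitinib, and the median -0.48 and -0.74. The cause of the other shifts was not tested.

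Over all probes, 970 were higher and 668 lower past 2-fold with cordyceps (59.2% higher). These were 1467 and 372 scaled to the median (79.8%), 666 and 1444 with no scaling (31.6%), 6071 and 2514 with no filter (70.7%), 585 and 456 with both arrays required above background, and 425 and 262 with normexp. With sunitinib, 2191 and 1540 (58.7%) became 1270 and 3215 (28.3%), 421 and 13276 (3.07%), 24764 and 3199 (88.6%) with no filter, and 773 and 1120 (40.8%) with normexp. Between the treatments, 2158 and 2136 (50.3%) became 5683 and 620 (90.2%), 8632 and 378 (95.8%), 3583 and 6013 (37.3%) with no filter, and 1524 and 625 (70.9%) with normexp. No paired analysis was possible because each group held 1 array, and leaving out an array would remove its group.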
